A study of Mus musculus with 44 samples.

Results

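Macrophages (MFs) recognise microbes and damaged tissue through Toll-like receptors (TLRs), and 10 genes of this system were read in MFs sorted from injured mouse muscle. They were the cell surface receptors Tlr1, Tlr2, Tlr4 and Tlr6, the endosomal receptors Tlr7, Tlr8, Tlr9 and Tlr13, and the coreceptors Cd14 and Ly96. The genes were taken by symbol, each through a probe set annotated to that symbol alone, and all 10 were found among the 19938 genes so measured. Each had exactly 1 such probe set.

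The tibialis anterior muscle of mice was injured with cardiotoxin (CTX), a snake toxin that kills muscle fibres. Leukocytes were pulled out of the muscle through CD45 and then split by flow sorting on Ly6C, which is high on inflammatory monocytes, and on F4/80, the product of Adgre1 on the MF surface. The KO mice were C57B6/J carrying PPARg fl/fl and LysM Cre+, so that the nuclear receptor PPARγ is a target of deletion in every cell that expresses the lysozyme gene Lyz2, neutrophils included. The WT mice were C57B6/J, and the labels give no littermate control with Cre alone. Rosiglitazone, an activating ligand of PPARγ, was given in 3 Ly6C- and 3 Ly6C+ arrays of WT mice at day 2. Untreated MFs labelled Ly6C- F4/80high came from 5 KO and 6 WT arrays at day 2. Untreated MFs labelled Ly6C+ F4/80low came from 4 KO and 4 WT arrays at day 1, 5 KO and 6 WT arrays at day 2, and 4 KO and 4 WT arrays at day 4. The sources used here give neither the age of the mice nor the dose of the drug. Values are log2 expression values, in which a difference of 1 stands for a 2-fold change, and "passed" means an adjusted p below 0.05 in limma's moderated test over all 19938 genes. The labels do not say which arrays came from which animal or pool, so p-values measure the spread between arrays, which may in part be technical, and the number of arrays limits the precision.

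The labels were checked against the arrays before the receptors were read. At day 2 the 2 probe sets shared by Ly6c1 and Ly6c2 lay between 8.61 and 9.98 in untreated Ly6C- arrays, against 11.74 to 12.34 in untreated Ly6C+ arrays. The day 4 arrays carry the Ly6C+ F4/80low label, but these probe sets lay between 9.21 and 10.94 there. Adgre1 lay between 12.16 and 12.37 at day 4, against 11.94 to 12.16 in untreated Ly6C- arrays of day 2 and 11.33 to 11.68 in untreated Ly6C+ arrays. The day 4 arrays therefore went against both parts of their label, and in WT their comparison with Ly6C+ MFs of day 2 is given beside that with Ly6C- MFs. Lyz2, which holds the Cre insertion, lay between 9.07 and 9.96 in KO arrays. In untreated WT day 2 arrays Lyz2 lay between 8.67 and 9.29 in replicates 1 to 3 of both subsets, against 12.64 to 13.02 in replicates 4 to 6. All other WT arrays, rosiglitazone included, lay between 12.81 and 13.19. For the 10 genes, results that rest on untreated WT day 2 arrays were therefore refitted with each of these replicate sets. The calls that changed are given. Pparg was not lower in KO arrays, at 10.39 ± 0.13 against 10.31 ± 0.38 in WT for day 2 Ly6C+ MFs (SD, n = 5 and 6), and which exons its probe set reads is not known here. The 7 MF markers were above the median gene in every group.

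TLRs are membrane proteins whose outer part binds a microbial molecule and whose inner part recruits adaptor proteins, chiefly MyD88, which leads to activation of NF-kB and interferon regulatory factors. TLR2 pairs with TLR1 or TLR6 to bind bacterial lipopeptides, and TLR4 with its partner MD-2, encoded by Ly96, binds lipopolysaccharide that CD14 delivers. TLR7, TLR9 and TLR13 sit in endosomes and sense single-stranded RNA, unmethylated CpG DNA and bacterial ribosomal RNA. In mice TLR8 is an endosomal relative of TLR7 whose response to RNA is weaker than that of human TLR8. In sterile injury the same receptors are known to respond to molecules released by dying cells, such as HMGB1 and mitochondrial DNA.

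The promoters of Tlr9, Tlr2 and Tlr8 are shown because these genes had different patterns over subsets and days. A promoter window of 300 bases, 250 before and 50 after the annotated start, was given by RefSeq (GRCm38.p6) for 6 of the 10 genes, in 8 windows. Capitals mark matches, on either strand, to the PU.1 core (GAGGAA), the AP-1 motif (TGANTCA), the interferon response core (GAAANNGAA) and the kappaB motif.
Tlr9, chr9:106222348-106222647, plus strand: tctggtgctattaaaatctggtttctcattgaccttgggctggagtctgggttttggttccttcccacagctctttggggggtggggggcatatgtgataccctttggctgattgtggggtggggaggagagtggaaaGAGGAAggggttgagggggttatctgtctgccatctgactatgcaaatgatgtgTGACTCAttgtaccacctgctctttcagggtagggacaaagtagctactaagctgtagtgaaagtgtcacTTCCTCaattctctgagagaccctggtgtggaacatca
Tlr2, chr3:83841559-83841858, minus strand: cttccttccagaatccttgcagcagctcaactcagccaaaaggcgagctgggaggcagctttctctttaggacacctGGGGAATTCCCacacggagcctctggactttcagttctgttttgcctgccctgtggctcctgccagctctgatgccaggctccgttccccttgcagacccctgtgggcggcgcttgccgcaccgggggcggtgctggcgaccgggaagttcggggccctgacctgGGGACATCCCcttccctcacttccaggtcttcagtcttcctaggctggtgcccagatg
Tlr8, chrX:167264280-167264579, minus strand: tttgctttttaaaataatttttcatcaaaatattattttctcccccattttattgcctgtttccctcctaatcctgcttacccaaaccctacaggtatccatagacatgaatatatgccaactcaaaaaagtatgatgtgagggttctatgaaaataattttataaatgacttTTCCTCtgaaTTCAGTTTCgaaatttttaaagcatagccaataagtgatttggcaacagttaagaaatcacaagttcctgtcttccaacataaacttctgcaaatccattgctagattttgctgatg
The Tlr9 window held 2 matches to the PU.1 core and a single AP-1 stretch, which reads the same on both strands. The Tlr2 window held kappaB matches in 2 stretches, the first made of matches that overlap, and the Tlr8 window held a PU.1 core and an interferon response core. Of 32851 promoter windows of this length, 28.3% held the PU.1 core, 7.8% the AP-1 motif, 8.6% the interferon response core and 8.5% the kappaB motif. These matches describe letters and not bound sites.

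**Figure D1:**
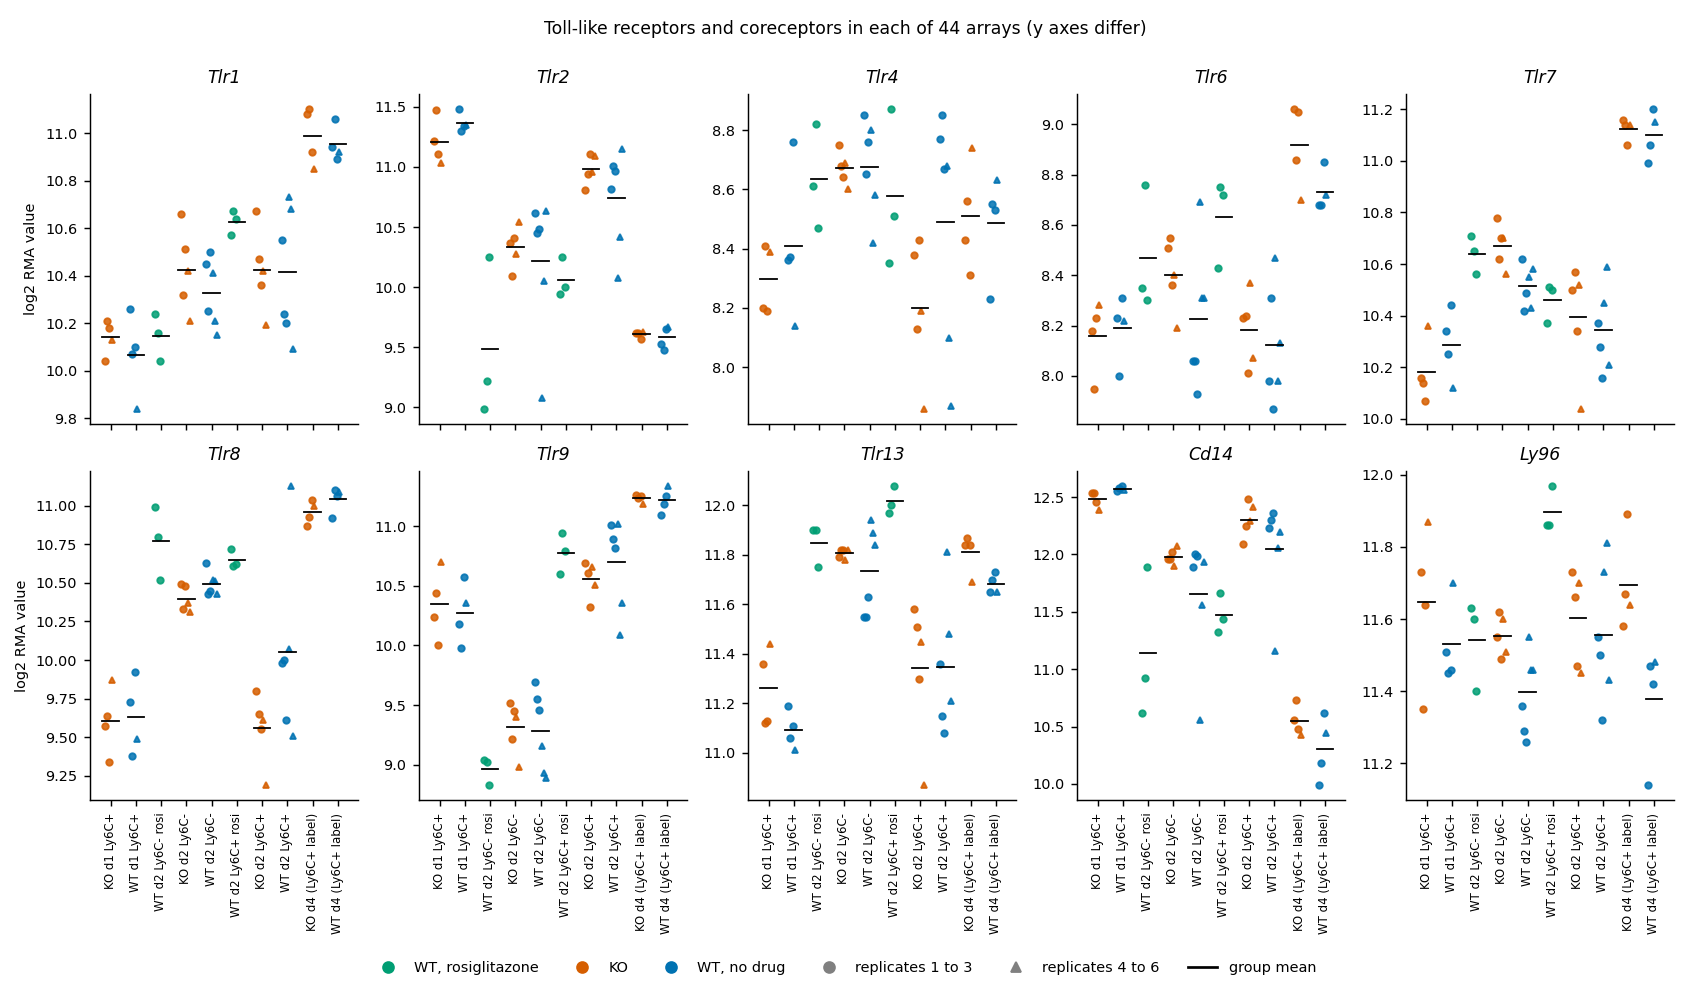
Log2 values (y axes, which differ between panels) of the 10 genes in each of the 44 arrays, by group (x axis), with bars at the group means. Green marks rosiglitazone, orange KO and blue untreated WT, and triangles are replicates 4 to 6. Tlr9 was lowest in the day 2 Ly6C- groups, with means of 8.96 to 9.31, and Cd14 and Tlr2 were highest at day 1.

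Tlr9 was the member that separated the day 2 subsets most. In KO MFs, Tlr9 (probe set 10588479) had 9.52, 9.22, 9.45, 9.40 and 8.98 in Ly6C- arrays, against 10.69, 10.61, 10.32, 10.66 and 10.51 in Ly6C+ arrays. In WT MFs it ran from 8.89 to 9.69 with a median of 9.31 in Ly6C- arrays, and from 10.09 to 11.02 with a median of 10.85 in Ly6C+ arrays. No Ly6C- array reached a Ly6C+ array in either genotype. The difference was -1.25 in KO (SE 0.15, adjusted p = 1.05e-08, 5 of 5 arrays below) and -1.42 in WT (SE 0.14, adjusted p = 2.98e-11, 6 of 6 below), which is 2.37-fold and 2.67-fold lower in Ly6C- MFs. It was -1.34 with WT replicates 1 to 3 and -1.50 with replicates 4 to 6. The interaction of genotype and subset was 0.17 (SE 0.20, adjusted p = 1.00).

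At day 4 the level of Tlr9 was high. It had 11.26, 11.24, 11.25 and 11.19 in KO arrays and 11.09, 11.19, 11.25 and 11.34 in WT arrays. All 8 arrays were above every array of days 1 and 2. WT arrays of day 4 were 1.94 above WT Ly6C- arrays of day 2 (SE 0.15, adjusted p = 1.85e-13, 3.82-fold) and 0.52 above WT Ly6C+ arrays of day 2 (SE 0.15, adjusted p = 0.00501, 1.43-fold). KO arrays of day 4 were 0.68 above KO Ly6C+ arrays of day 2 (SE 0.16, adjusted p = 0.000582). Thus the day 4 arrays, whose Adgre1 level was at or above that of Ly6C- MFs of day 2, lay at the opposite end of the Tlr9 range from those MFs.

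Over all groups the order of Tlr9 fell into separated steps. The day 2 Ly6C- groups were lowest, with rosiglitazone at 8.96 ± 0.11, KO at 9.31 ± 0.22 and WT at 9.28 ± 0.34 (SD, n = 3, 5 and 6), and these overlapped. The day 1 and day 2 Ly6C+ groups followed, with means of 10.27 to 10.78, of which neighbours in the order overlapped. The day 4 groups were highest at 11.23 ± 0.03 in KO and 11.22 ± 0.10 in WT (SD, n = 4 each).

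Markers of other cells that can express Tlr9 were read beside it. The 6 measured plasmacytoid dendritic cell markers averaged 7.08 to 7.23 in WT Ly6C- arrays and 7.16 to 7.47 in WT Ly6C+ arrays of day 2. In WT arrays of day 4 they averaged 7.25 to 7.39. The 5 measured B cell markers averaged 6.10 to 6.24, 6.01 to 6.32 and 6.23 to 6.35 in the same groups, with 1 of the 5, Cd79b, above the median gene. The 7 conventional dendritic cell markers averaged 6.15 to 6.25 in WT Ly6C- arrays, lower than in WT Ly6C+ arrays at 6.64 to 6.82. They averaged 6.62 to 6.79 in WT at day 4. In KO the plasmacytoid list averaged 7.03 to 7.20 in Ly6C- arrays and 7.11 to 7.29 in Ly6C+ arrays of day 2. It averaged 7.22 to 7.57 in KO at day 4, with 3 of the 6 above the median gene, against 2 in WT. The B cell list gave 6.05 to 6.24, 6.10 to 6.23 and 6.15 to 6.31 in those KO groups. The conventional dendritic cell list gave 6.01 to 6.22, 6.46 to 6.67 and 6.51 to 6.75 there. The part of such cells in the Tlr9 differences was not tested. In bulk samples, fewer cells that express a gene and less RNA per cell cannot be told apart.

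Between the day 2 subsets, 6 of the 10 genes passed in KO, where 38.4% of all genes passed, and 4 of the 10 in WT, where 45.2% of all genes passed. All 4 of the WT genes were among the 6 of KO, with the same directions. The shares are near those of all genes, so the count in itself sets the receptors apart in neither genotype. Tlr2 fell with Tlr9 in Ly6C- MFs, while Tlr8 and Tlr13 rose in both genotypes and Tlr4 and Tlr7 passed, as rises, in KO.

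Tlr8 and Tlr13 moved against Tlr9. Tlr8 (probe set 10607868) had 10.49, 10.33, 10.48, 10.37 and 10.31 in KO Ly6C- arrays, against 9.80, 9.65, 9.55, 9.61 and 9.19 in KO Ly6C+ arrays. In WT it ran from 10.43 to 10.63 with a median of 10.48 in Ly6C- arrays, and from 9.51 to 11.13 with a median of 9.99 in Ly6C+ arrays. The KO groups did not overlap, and the WT groups overlapped only through Ly6C+ replicate 5, at 11.13. The difference was 0.84 in KO (SE 0.16, adjusted p = 4.90e-05) and 0.44 in WT (SE 0.15, adjusted p = 0.0125). Tlr8 did not pass in WT with replicates 4 to 6 alone, at 0.24 (adjusted p = 0.382), or without Ly6C+ replicate 6, at 0.33 (adjusted p = 0.0574), or Ly6C+ replicate 3, at 0.35 (adjusted p = 0.0507). It was 0.64 with replicates 1 to 3 alone (adjusted p = 0.000313) and 0.66 without Ly6C+ replicate 5 (adjusted p = 1.51e-06).

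Tlr13, the receptor for bacterial ribosomal RNA (probe set 10601385), had 11.79, 11.82, 11.82, 11.78 and 11.82 in KO Ly6C- arrays, against 11.58, 11.51, 11.30, 11.45 and 10.87 in KO Ly6C+ arrays. In WT it ran from 11.55 to 11.94 with a median of 11.73 in Ly6C- arrays, and from 11.08 to 11.81 with a median of 11.29 in Ly6C+ arrays. The WT groups overlapped and the KO groups did not. The difference was 0.46 in KO (SE 0.10, adjusted p = 0.000495) and 0.39 in WT (SE 0.10, adjusted p = 0.00110). Tlr7 (probe set 10607870), the neighbour of Tlr8 on chromosome X with no annotated gene starting between them, was 0.28 higher in KO Ly6C- MFs (SE 0.08, adjusted p = 0.00623), and not without KO Ly6C+ replicate 5, at 0.19 (adjusted p = 0.0549). In WT it had a difference of 0.17 (SE 0.07, adjusted p = 0.0566), and it passed there at 0.24 once each array was centred on its own median (adjusted p = 0.0164).

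Among the surface receptors, Tlr2 (probe set 10498992) had 10.37, 10.09, 10.41, 10.28 and 10.54 in KO Ly6C- arrays, against 10.81, 10.94, 11.11, 10.96 and 11.09 in KO Ly6C+ arrays. In WT it ran from 9.08 to 10.63 with a median of 10.46 in Ly6C- arrays, and from 10.08 to 11.15 with a median of 10.89 in Ly6C+ arrays. The KO groups did not overlap and the WT groups did. The difference was -0.65 in KO (SE 0.20, adjusted p = 0.0104) and -0.52 in WT (SE 0.18, adjusted p = 0.0184). The WT difference was -0.30 without Ly6C- replicate 4 (adjusted p = 0.114), -0.44 without Ly6C+ replicate 6 (adjusted p = 0.0563) and -0.63 with replicates 4 to 6 alone (adjusted p = 0.0541), none of which passed. Tlr4 (probe set 10505517), the lipopolysaccharide receptor, was 0.48 higher in KO Ly6C- MFs (SE 0.14, adjusted p = 0.00645), where 5 of 5 arrays were above every Ly6C+ array. The Tlr4 difference in WT was 0.19 (SE 0.13, adjusted p = 0.222).

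Tlr1, Tlr6, Cd14 and Ly96 passed in neither genotype in the fit of all arrays. Tlr6 was 0.22 higher in KO Ly6C- MFs, which passed with only the KO day 2 arrays in the fit (adjusted p = 0.0414). Ly96 passed in WT without Ly6C+ replicate 3, at -0.21 (adjusted p = 0.0413). Cd14 (probe set 10458382), on chromosome 18, had 11.96, 11.96, 12.02, 11.90 and 12.07 in KO Ly6C- arrays and 12.09, 12.25, 12.48, 12.29 and 12.41 in KO Ly6C+ arrays. These groups did not overlap, though the difference of -0.32 did not pass with the spread pooled over all groups (SE 0.20, adjusted p = 0.192). With only the KO day 2 arrays in the fit its adjusted p was 0.00253. In WT the Cd14 difference was -0.40 (SE 0.18, adjusted p = 0.0720), and leaving out 1 array moved it in both directions. It was -0.18 without Ly6C- replicate 4 (adjusted p = 0.361), and it passed at -0.58 without Ly6C+ replicate 4 (adjusted p = 0.00530) and at -0.47 and -0.46 without Ly6C- replicate 2 or 3 (adjusted p = 0.0420 and 0.0478). The interaction of genotype and subset passed for 0 of the 10 genes, where 0.01% of all genes passed, and no member had an unadjusted p below 0.05.

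**Figure D2:**
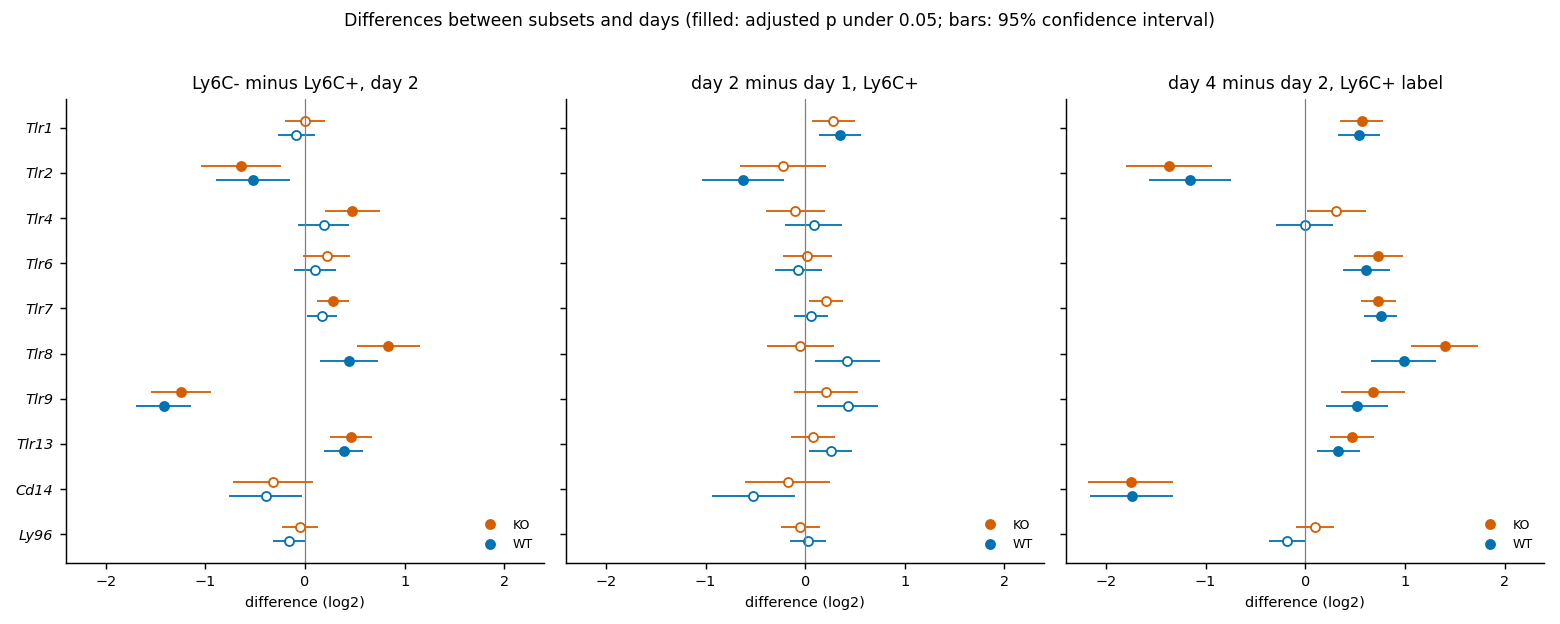
Differences (x axes, log2) of the 10 genes (y axis) between day 2 subsets, between days 2 and 1, and between days 4 and 2, in KO (orange) and WT (blue). Points are fitted differences, filled where the adjusted p was below 0.05, and lines are 95% confidence intervals. Tlr9 stands at -1.25 and -1.42 between subsets, and Cd14 at -1.75 and -1.74 between days 4 and 2.

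Between days 4 and 2 most of the receptor genes rose, while Cd14 and Tlr2 fell. Of the 10 genes, 8 passed in KO, where 44.8% of all genes passed, and 8 in WT, where 49.8% of all genes passed. These were the same 8 genes with the same directions, 6 higher and 2 lower at day 4, and the median difference of the 10 was 0.52 in KO and 0.43 in WT against -0.08 and -0.09 over all genes. When WT day 4 arrays were set against WT Ly6C- arrays of day 2, 7 of the 10 passed, where 29.3% of all genes passed. Both WT comparisons share the day 4 arrays. All 10 genes were above the median gene in mean level, and brighter genes passed more often. With only genes at or above the median level tested, 6098 passed in KO and 6414 in WT between days 4 and 2, against 8937 and 9921 of all 19938 genes. That filter left far fewer genes to test, so the smaller counts are larger shares. The shares over all genes given above are thus lower than those among genes of like level.

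Cd14, which delivers lipopolysaccharide and lipopeptides to the receptors, fell most. In KO it had 12.54, 12.54, 12.46 and 12.39 at day 1, and 12.09, 12.25, 12.48, 12.29 and 12.41 in Ly6C+ arrays of day 2. At day 4 it had 10.56, 10.73, 10.48 and 10.43 in KO, all far below every earlier KO array. In WT it had 12.55, 12.58, 12.60 and 12.56 at day 1, ran from 11.16 to 12.36 with a median of 12.21 in Ly6C+ arrays of day 2, and had 9.99, 10.18, 10.62 and 10.44 at day 4. Day 4 did not overlap day 2 Ly6C+ in either genotype. The day 4 difference was -1.75 in KO (SE 0.21, adjusted p = 5.29e-09, 3.37-fold lower) and -1.74 in WT (SE 0.20, adjusted p = 1.99e-09, 3.35-fold lower), and -1.35 against WT Ly6C- arrays (SE 0.20, adjusted p = 1.04e-06).

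Tlr2 had 11.22, 11.47, 11.11 and 11.03 in KO at day 1, 10.81, 10.94, 11.11, 10.96 and 11.09 in Ly6C+ arrays of day 2, and 9.62, 9.62, 9.57 and 9.63 at day 4. In WT it had 11.48, 11.30, 11.34 and 11.35 at day 1, ran from 10.08 to 11.15 at day 2, and had 9.53, 9.48, 9.65 and 9.67 at day 4. The 8 day 4 arrays lay within a narrow band below all Ly6C+ arrays of days 1 and 2. The day 4 difference was -1.37 in KO (SE 0.21, adjusted p = 9.62e-07) and -1.16 in WT (SE 0.20, adjusted p = 8.20e-06). Against WT Ly6C- arrays it was -0.64 (SE 0.20, adjusted p = 0.0147), which did not pass against replicates 4 to 6, at -0.34 (adjusted p = 0.352).

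In the groups where single arrays of Cd14 stood apart, Tlr2 was read in the same arrays. WT day 2 Ly6C- replicate 4 had the lowest Cd14, 10.56, and the lowest Tlr2, 9.08, of its group, where the other 5 arrays had 11.56 or more for Cd14 and 10.05 to 10.63 for Tlr2. WT Ly6C+ replicate 4 also had the lowest Cd14, 11.16, and the lowest Tlr2, 10.08, of its group. Among rosiglitazone Ly6C- arrays, replicate 3 had the highest Cd14, 11.89, and the highest Tlr2, 10.25, against 10.62 and 10.92 for Cd14 and 8.99 and 9.22 for Tlr2 in replicates 1 and 2.

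The partners of Tlr2 did not follow it. Tlr1 (probe set 10530145) had 11.08, 11.10, 10.92 and 10.85 at day 4 in KO, against 10.67, 10.47, 10.36, 10.42 and 10.19 in Ly6C+ arrays of day 2. In WT it had 10.94, 11.06, 10.89 and 10.92 at day 4 and ran from 10.09 to 10.73 at day 2. Neither genotype overlapped between days, and Tlr1 rose by 0.57 in KO (SE 0.11, adjusted p = 3.05e-05) and 0.54 in WT (SE 0.10, adjusted p = 3.38e-05). Tlr6 (probe set 10530151), which is adjacent to Tlr1 on chromosome 5 and similar to it in sequence, rose by 0.73 in KO (SE 0.12, adjusted p = 3.49e-06) and 0.61 in WT (SE 0.12, adjusted p = 3.30e-05). Whether either probe set also reads the other gene was not tested. Tlr6 reached 9.06, 8.86, 9.05 and 8.70 in KO and 8.68, 8.68, 8.85 and 8.72 in WT at day 4, above all Ly6C+ arrays of day 2 without drug. Against WT Ly6C- arrays of day 2, Tlr1 was 0.62 higher at day 4 (SE 0.10, adjusted p = 5.40e-06) and Tlr6 0.51 higher (SE 0.12, adjusted p = 0.000666). The Tlr6 call was lost against Ly6C- replicates 4 to 6, at 0.30 (adjusted p = 0.0830).

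Every endosomal receptor of the list rose. Tlr8 had 10.87, 10.93, 11.04 and 11.00 in KO and 10.92, 11.10, 11.06 and 11.09 in WT at day 4. It rose by 1.40 in KO (SE 0.17, adjusted p = 4.59e-09, 2.64-fold) and by 0.99 in WT (SE 0.16, adjusted p = 2.34e-06, 1.98-fold). Tlr8 in WT Ly6C+ replicate 5 of day 2, at 11.13, was above every day 4 array, so the WT groups overlapped through that array alone. Against WT Ly6C- arrays of day 2 the rise of Tlr8 was smaller, at 0.55 (SE 0.16, adjusted p = 0.00789), with no overlap. Tlr7, a receptor for single-stranded RNA, had 11.16, 11.14, 11.06 and 11.14 in KO and 10.99, 11.06, 11.20 and 11.15 in WT at day 4, above every array of days 1 and 2. It rose by 0.73 in KO (SE 0.09, adjusted p = 2.33e-09) and 0.76 in WT (SE 0.08, adjusted p = 3.73e-10), and by 0.59 against WT Ly6C- arrays (SE 0.08, adjusted p = 2.54e-07).

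Tlr13 rose by 0.47 in KO (SE 0.11, adjusted p = 0.000621) and 0.33 in WT (SE 0.11, adjusted p = 0.00934). The WT call was lost against replicates 4 to 6 alone, at 0.18 (adjusted p = 0.208). Tlr13 did not pass against WT Ly6C- arrays, at -0.05 (SE 0.11, adjusted p = 0.773), so its day 4 level lay near that of Ly6C- MFs of day 2. Tlr4 and Ly96, which together form the lipopolysaccharide receptor, passed in neither genotype in the fit of all arrays. The Tlr4 difference was 0.31 in KO (SE 0.15, adjusted p = 0.0818, and 0.0487 at 0.37 after centring) and -0.01 in WT (SE 0.14, adjusted p = 0.970), and the Ly96 difference was 0.09 in KO (SE 0.10, adjusted p = 0.430) and -0.18 in WT (SE 0.09, adjusted p = 0.0953). Ly96 passed in WT against replicates 4 to 6 alone, at -0.28 (adjusted p = 0.0318), and without day 2 Ly6C+ replicate 3, at -0.23 (adjusted p = 0.0401).

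Cell markers that moved with day are given beside these values. The 3 measured monocyte markers averaged 8.22 to 8.73 in day 4 arrays of both genotypes, against 11.42 to 11.81 in untreated Ly6C+ arrays of day 2. The 12 neutrophil markers, which include the listed ligands S100a8 and S100a9, averaged 6.88 to 7.11 at day 1, 6.60 to 6.84 in untreated Ly6C+ arrays of day 2 and 6.21 to 6.36 at day 4. The 7 MF markers averaged 11.69 to 11.89 at day 4, against 11.24 to 11.50 in untreated Ly6C+ arrays of day 2. The 6 muscle fibre markers averaged 7.05 to 7.23 at day 4, against 6.59 to 6.84 in those day 2 arrays. Their part in the day 4 differences was not tested.

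Between days 2 and 1, 0 of the 10 genes passed in KO Ly6C+ MFs, where 8.64% of all genes passed, and 2 of the 10 had an unadjusted p below 0.05. In WT, 2 of the 10 passed, where 9.69% of all genes passed. Tlr1 was 0.35 higher at day 2 in WT (SE 0.10, adjusted p = 0.0243), with 10.09 to 10.73 over 6 arrays of day 2, against 10.26, 10.07, 10.10 and 9.84 at day 1. Tlr2 fell at day 2, with a difference of -0.63 (SE 0.20, adjusted p = 0.0423), and all 6 WT arrays of day 2 were below all 4 of day 1. Both calls were near the threshold. Tlr1 no longer passed when any 1 of WT day 1 replicates 2 and 4 or day 2 replicates 1, 4 and 5 was left out, and Tlr2 without any 1 of the WT day 1 replicates or of day 2 replicates 1, 4 and 5. Without KO day 2 replicate 5, Tlr1 and Tlr7 passed in KO, at 0.34 and 0.30 (adjusted p = 0.0388 and 0.0113). With WT replicates 4 to 6 alone 5 of the 10 passed, where 2121 of all genes did, and Tlr8, Tlr13 and Cd14 were added at 0.61, 0.41 and -0.77. With replicates 1 to 3 alone 2 of the 10 passed, where 3403 of all genes did. There Tlr1 was 0.26 (adjusted p = 0.0824) and Tlr9 was 0.63 higher (adjusted p = 0.000589). Tlr9 also passed without WT day 1 replicate 3 or day 2 replicate 5 or 6, and Tlr8 without day 2 replicate 3 or 6. The interaction of genotype with days 2 and 1 passed for 0 of the 10 genes, where 0.01% of all genes passed.

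KO and WT MFs were compared within each day and subset. The day 2 WT arrays are those of the subset comparisons. The test passed for 0 of the 10 genes in each of the 4 conditions. Of all genes, 0.0351% passed at day 1, 1.88% in day 2 Ly6C+ MFs, 0.201% in day 2 Ly6C- MFs and 0.0652% at day 4, so few genes of any kind passed. Unadjusted p values below 0.05 numbered 0, 2, 0 and 1 of 10 in the same conditions. For Tlr9 the 95% interval of the difference was -0.32 to 0.36 at day 4 and -0.26 to 0.32 in day 2 Ly6C- MFs. For Cd14 it was -0.21 to 0.70 at day 4, which leaves room for a difference of more than 1.5-fold.

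The Ly96 values stood apart at day 4. They were 11.58, 11.67, 11.89 and 11.64 in KO arrays, against 11.14, 11.47, 11.42 and 11.48 in WT arrays, with no overlap. The difference of 0.32 (SE 0.10, unadjusted p = 0.00288) had an adjusted p of 1.00. In day 2 Ly6C+ MFs Tlr8 had 9.80, 9.65, 9.55, 9.61 and 9.19 in KO, against a range of 9.51 to 11.13 with a median of 9.99 in WT. The Tlr8 difference was -0.49 (SE 0.15, adjusted p = 0.0794), or -0.30 against WT replicates 1 to 3 (adjusted p = 0.0835) and -0.68 against replicates 4 to 6 (adjusted p = 0.0491). Leaving out WT Ly6C+ replicate 3 or 6 also let it pass (adjusted p = 0.0459 and 0.0166), and without replicate 6 Tlr4 passed at -0.42 (adjusted p = 0.0440).

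The 2 sets of WT arrays gave different calls in these comparisons, over all genes too. Against replicates 1 to 3, 3008 of all genes passed in Ly6C+ and 2864 in Ly6C- MFs, and against replicates 4 to 6, 322 and 23. Against replicates 1 to 3, Tlr4 was 0.57 lower in KO Ly6C+ MFs, a difference of -0.57 (adjusted p = 0.00140), and Tlr6 was 0.39 higher in KO Ly6C- MFs (adjusted p = 0.0165). Against replicates 4 to 6, neither passed. WT Tlr4 averaged 8.77 ± 0.09 in Ly6C+ replicates 1 to 3 and 8.22 ± 0.42 in replicates 4 to 6, and WT Tlr6 averaged 8.02 ± 0.08 and 8.44 ± 0.22 in the Ly6C- sets (SD, n = 3 each). The interaction of genotype with days 4 and 2 passed for 0 of the 10 genes, where 0.0301% of all genes passed, though Tlr4 passed in it with replicates 1 to 3 alone, at 0.59 (adjusted p = 0.0393).

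Rosiglitazone was compared with no drug within each day 2 subset of WT MFs, against the same untreated arrays as above. In Ly6C- MFs 0 of the 10 genes passed, where 0.0351% of all genes passed, and 2 had an unadjusted p below 0.05. In Ly6C+ MFs 5 of the 10 passed, where 11.1% of all genes passed. With only genes at or above the median level tested, which are far fewer, 2312 passed, against 2218 when all genes were tested. The share that passed was thus larger among the brighter genes. Tlr13, Tlr8, Tlr6 and Ly96 were higher and Tlr2 lower with the drug. These calls depended on the arrays in the fit, since 0 of all genes passed when only the arrays of the 2 compared groups were used.

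Tlr13 gave the clearest of these values. It lay between 11.97 and 12.08 in the 3 arrays with rosiglitazone, against a range of 11.08 to 11.81 with a median of 11.29 without it, and the groups did not overlap. The difference was 0.67 (SE 0.12, adjusted p = 0.000350), or 0.52 against WT replicates 4 to 6 (adjusted p = 0.0268), whose Lyz2 level was near that of the rosiglitazone arrays. With rosiglitazone, Ly96 (probe set 10344966) had 11.86, 11.86 and 11.97, against 11.32 to 11.81 with a median of 11.53 without it, again with no overlap. The Ly96 difference was 0.34 (SE 0.10, adjusted p = 0.0233), or 0.24 against replicates 4 to 6 (adjusted p = 0.293).

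The other rosiglitazone groups overlapped. Tlr8 had 10.72, 10.61 and 10.62 with the drug, against 9.51 to 11.13 without it (difference 0.60, SE 0.18, adjusted p = 0.0237). Tlr6 had 8.43, 8.75 and 8.72, against 7.87 to 8.47 (difference 0.51, SE 0.13, adjusted p = 0.00729). Tlr2 lay between 9.94 and 10.25 in the 3 arrays, against 10.08 to 11.15 (difference -0.68, SE 0.22, adjusted p = 0.0421). None of Tlr8, Tlr6 and Tlr2 passed against replicates 4 to 6 alone, with adjusted p = 0.335, 0.0742 and 0.352, so of the 5 calls only that of Tlr13 remained there, where 309 of all genes passed. Against replicates 1 to 3 alone 7 of the 10 passed, where 5435 of all genes did. Cd14 and Tlr1 were added there, at -0.82 and 0.30 (adjusted p = 0.000260 and 0.0456). Lyz2 lay between 8.67 and 8.99 in those WT arrays and between 12.9 and 13.1 with rosiglitazone. The drug and what separates the WT sets thus cannot be told apart there. Leaving out 1 array at a time gave 1 to 6 calls among the 10 genes, of which Tlr13 was always 1. Without rosiglitazone replicate 3 it was the only call, and without rosiglitazone replicate 1, 2 or 3, or WT replicate 3 or 6, at least Tlr2 and Tlr8 no longer passed.

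In Ly6C- MFs Tlr2 had 8.99, 9.22 and 10.25 with rosiglitazone, against 9.08 to 10.63 with a median of 10.46 without it. The difference was -0.73 (SE 0.22, adjusted p = 0.252). Without WT replicate 4 it was -0.96 (adjusted p = 0.00343), and without rosiglitazone replicate 3 it was -1.11 (adjusted p = 0.0137). Against WT replicates 1 to 3, where 2556 of all genes passed, Tlr2, Cd14, Tlr9 and Tlr6 did so, with -1.03, -0.82, -0.60 and 0.45 (adjusted p = 4.59e-05, 0.000840, 0.00280 and 0.0118). Lyz2 lay between 9.11 and 9.29 in those WT arrays and between 12.86 and 13.19 with rosiglitazone. The drug and what separates the WT sets therefore cannot be told apart in that comparison. Against replicates 4 to 6 none of the 10 passed, at -0.43 for Tlr2 and -0.03 for Tlr9 (adjusted p = 0.999 each). The interaction of rosiglitazone and subset passed for 0 of the 10 genes, where 0.015% of all genes passed. Tlr13 had the lowest p there, with a difference between the effects of -0.56 (SE 0.17, adjusted p = 0.315), or -0.65 without WT Ly6C+ replicate 4 (adjusted p = 0.0213). With WT replicates 1 to 3 alone Tlr13 also passed, at -0.55 (adjusted p = 0.0436).

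**Figure D3:**
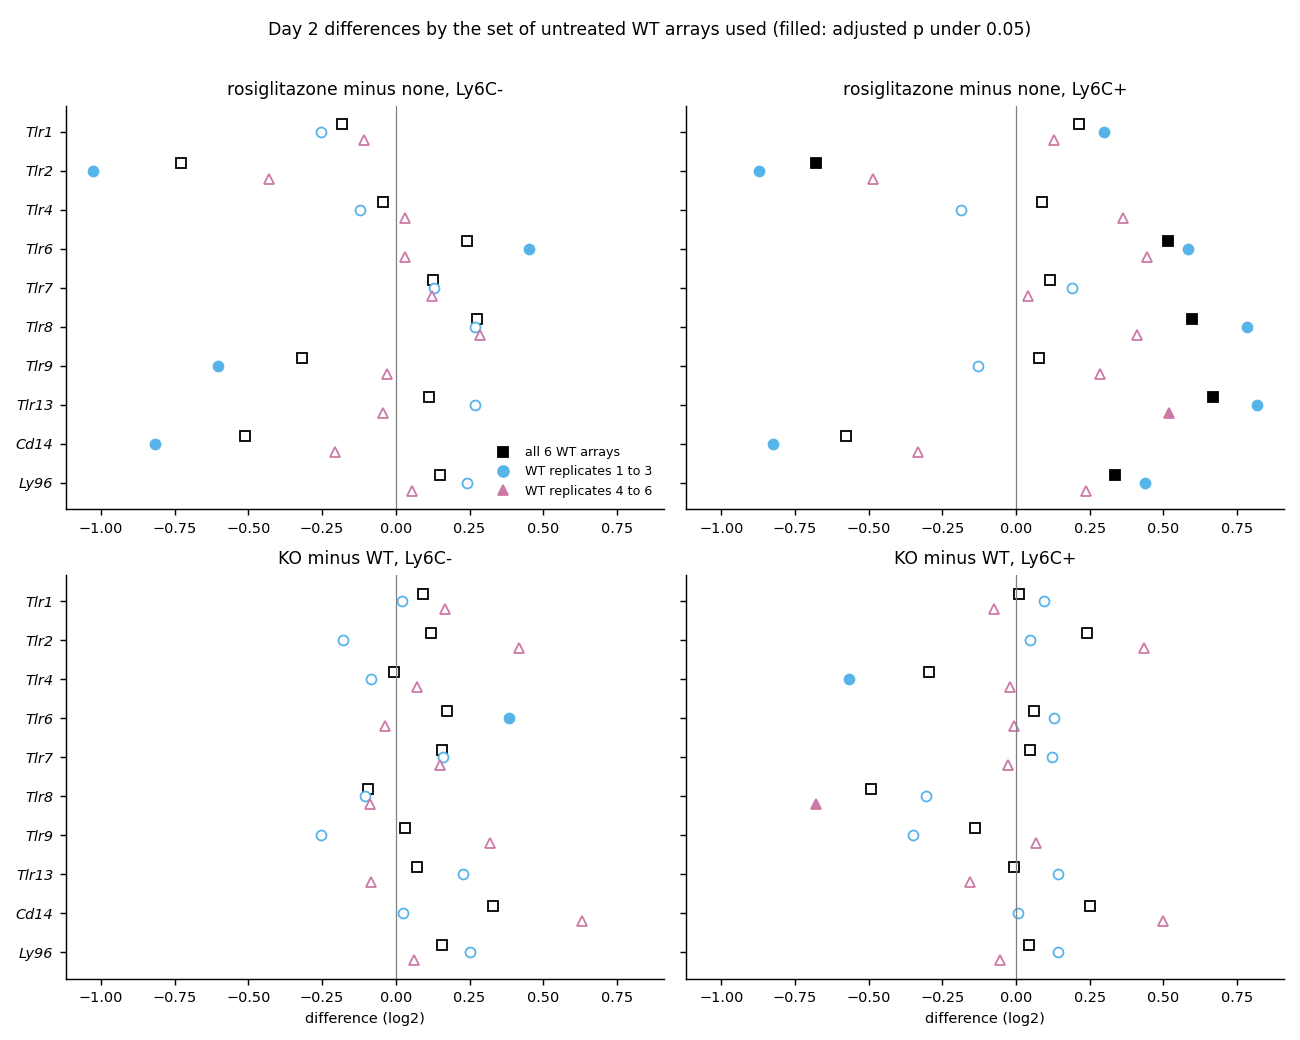
Differences (x axes, log2) of the 10 genes (y axis) between rosiglitazone and no drug (top) and between KO and WT (bottom) in day 2 Ly6C- and Ly6C+ MFs. Squares use all 6 untreated WT arrays of a subset, circles replicates 1 to 3 and triangles replicates 4 to 6, and filled symbols had an adjusted p below 0.05. Tlr13 in Ly6C+ MFs is filled in all 3 settings of the rosiglitazone comparison.

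The genes around the receptors were read from 8 lists, with 97 genes measured. The lists were drawn from general knowledge, but with earlier results of these data known. Their genes were read only in the fit of all arrays, and not with each set of WT day 2 replicates. The shares of all genes to read their counts against are 23.8% higher and 26% lower between days 4 and 2 in WT, 22.3% and 22.5% in KO, 14.1% and 15.2% between WT day 4 and WT Ly6C- MFs of day 2, and 22.2% and 23% between WT subsets. Of the other TLRs, Tlr3, which senses double-stranded RNA, and Tlr12, a receptor known in mice for the parasite protein profilin, were measured. Both rose between days 4 and 2 in WT, Tlr3 by 2.05 (SE 0.18, adjusted p = 1.03e-12) and Tlr12 by 1.20 (SE 0.10, adjusted p = 4.16e-13). Tlr3 was also 0.69 higher in WT Ly6C- than in Ly6C+ MFs at day 2 (SE 0.16, adjusted p = 0.000574).

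Of 14 genes for trafficking and processing of endosomal receptors, 11 were higher and 2 lower at day 4 than at day 2 in WT, with a median difference of 0.43. In KO 10 were higher and 2 lower, with a median of 0.34. Against WT Ly6C- MFs of day 2, 5 of the 14 were higher and 4 lower at day 4 in WT, with a median of 0.05. Unc93b1, which carries endosomal TLRs out of the endoplasmic reticulum, rose by 1.15 in WT (SE 0.12, adjusted p = 4.32e-11). Slc15a4, an endosomal transporter, rose by 0.93 (SE 0.12, adjusted p = 1.18e-08). Pld3, an endolysosomal nuclease that degrades single-stranded nucleic acid, rose by 0.81 (SE 0.06, adjusted p = 3.30e-14), and Ctss, a protease that cuts the receptors, by 0.75. Between WT subsets 7 of the 14 were higher and 1 lower in Ly6C- MFs, with a median of 0.21. Ctsk and Ctsl, 2 further cathepsins, were 1.51 and 0.91 higher, and Unc93b1 had a difference of 0.18 (SE 0.10, adjusted p = 0.152).

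Of 19 adaptors and proximal kinases, 3 were higher and 8 lower at day 4 than at day 2 in WT, with a median of -0.15. Against WT Ly6C- MFs of day 2, 6 were higher and 5 lower, with a median of 0.02. Myd88, the adaptor shared by most TLRs, did not pass there, at 0.06 (SE 0.08, adjusted p = 0.575), and was lower in WT Ly6C- than in Ly6C+ MFs at day 2, with -0.50 (SE 0.07, adjusted p = 3.52e-07). Of 10 NF-kB and IRF factors, 4 were higher and 5 lower at day 4 in WT, and 5 were higher and 0 lower when WT Ly6C- MFs of day 2 were used. Irf8 and Irf7, interferon regulatory factors of MFs and dendritic cells, rose by 1.36 and 1.20 (adjusted p = 4.25e-12 and 1.83e-06), while Nfkb2 and Rel fell, with -0.77 and -0.66. Between WT subsets of day 2, 7 of the 10 factors were lower in Ly6C- MFs and 2 were higher. Irf7 was among the lower, with -1.09 (SE 0.17, adjusted p = 1.77e-06).

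The target genes fell with day. Of 20 cytokines, chemokines and enzymes that TLR signalling is known to induce, 17 in KO and 16 in WT were lower at day 4 than at day 2 and 0 were higher. Their median difference was -1.99 in KO and -1.61 in WT, against -0.08 and -0.09 over all genes. Against WT Ly6C- MFs of day 2 the fall was smaller, with 12 lower, 1, Cxcl10, higher and a median of -0.88. Cxcl3, Il6, Il1b and Ptgs2 had -3.56, -3.41, -3.32 and -3.26 in WT. Of 14 inhibitors of the pathway, 11 were lower and 1 higher in each genotype, among them Nfkbie, Socs3, Nfkbia and Tnfaip3 with -1.78, -1.67, -1.40 and -1.40 in WT. Against WT Ly6C- MFs of day 2, 10 of the 14 were lower and 2 higher. Between WT subsets 10 of the 20 targets were lower in Ly6C- MFs and 0 were higher, led by Il6 at -2.55 and Il1b at -1.74. Of 9 measured endogenous ligands, 6 were lower and 1, Bgn, higher at day 4 in WT, and 4 were lower and 1 higher against WT Ly6C- MFs of day 2.

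**Figure D4:**
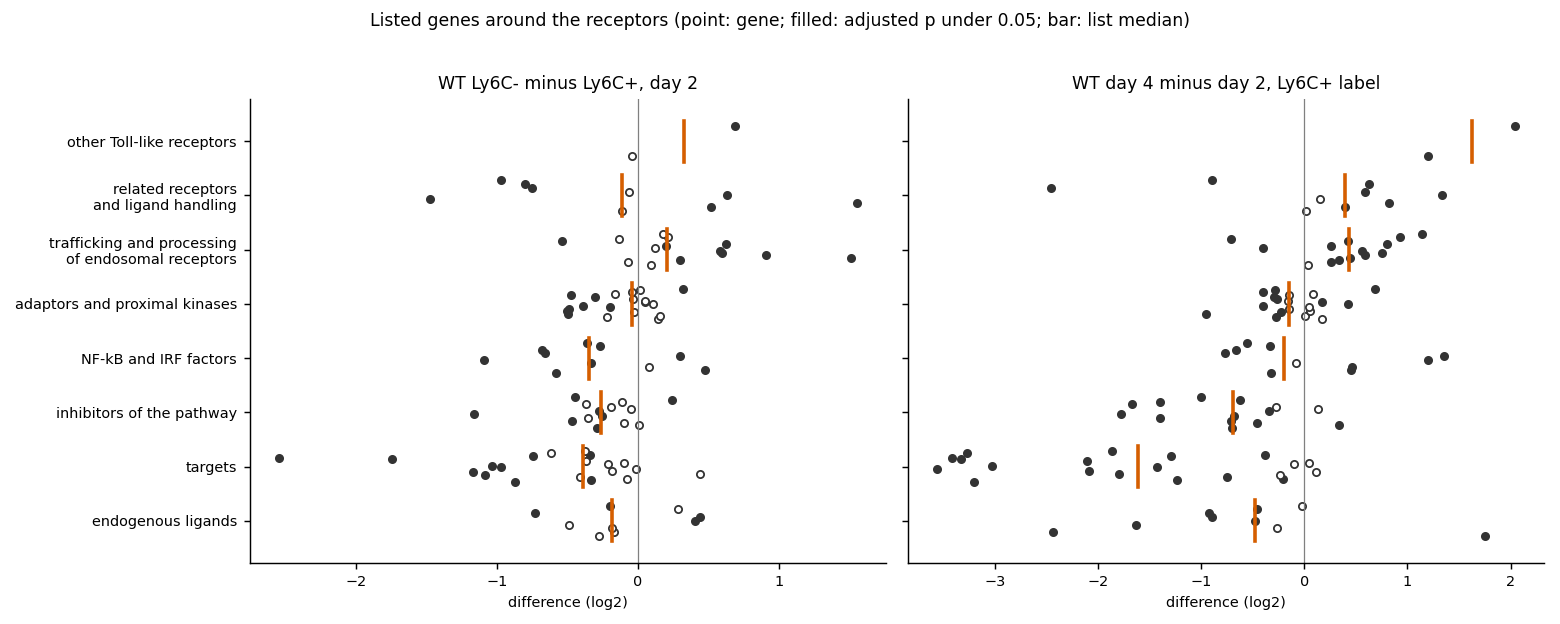
Differences (x axes, log2) of the listed genes (points) in 8 lists (y axis), for Ly6C- minus Ly6C+ MFs at day 2 and for day 4 minus day 2 in WT. Filled points had an adjusted p below 0.05 and orange bars are list medians, which for the targets stand at -0.39 and -1.61 and for the trafficking genes at 0.21 and 0.43.

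Few of these genes passed between genotypes. Saa3, an acute phase protein listed among the ligands, was higher in KO at day 1 by 1.23, in day 2 Ly6C+ MFs by 1.05 and in day 2 Ly6C- MFs by 1.34 (adjusted p = 0.00103, 0.000600 and 6.21e-06). At day 4 the ligand that passed was Fn1, which encodes fibronectin, 0.60 higher in KO. Of 20 targets, 3 were higher in KO Ly6C+ MFs of day 2, namely Ccl4, Nfkbiz and Ccl3 with 1.13, 0.71 and 0.22, where 1.88% of all genes passed, and 0 of the 20 passed in the other 3 conditions. With rosiglitazone in Ly6C+ MFs, 3 of the 20 targets were lower, namely Ccl5, Acod1 and Il6 with -1.95, -1.70 and -1.41, where 11.1% of all genes passed, under the same dependence on the arrays in the fit.

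Profiles over the 10 group means were compared with those of all other genes, as a description. The points share day and subset, so high values are common among 19938 genes. For Tlr9 the nearest were Ifi213, Apoc1 and Tpst1 (r = 0.988, 0.986 and 0.986). For Cd14 they were Sntb2, Dusp5 and Nufip1 (r = 0.995, 0.994 and 0.993), and for Tlr2 Malt1, Marchf7 and Lmnb1 (r = 0.994, 0.993 and 0.989). For Tlr1 they were Cx3cr1, Ly86 and Nlrp1c-ps (r = 0.990, 0.980 and 0.980). For Tlr6 they were Sharpin, Top3b and D5Ertd579e (r = 0.984, 0.982 and 0.981), for Tlr7 Usp30, Cd47 and Abl1 (r = 0.992, 0.991 and 0.988), and for Tlr8 Shtn1, Depdc5 and Ripor1 (r = 0.993, 0.988 and 0.985). For Tlr13 they were Sdhaf1, Pigt and Synrg (r = 0.992, 0.983 and 0.981). Tlr4 and Ly96, whose group means spanned 0.48 and 0.52, had lower best values, with Exoc6b, Atp5k and Rsu1 for Tlr4 (r = 0.928, 0.927 and 0.926) and 4930584F24Rik, B230307C23Rik and Msra for Ly96 (r = 0.909, 0.907 and 0.895). By contrast the group means of Tlr9 and Cd14 spanned 2.27 and 2.26.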

How the data were processed

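RNA of sorted MFs was measured on 44 one-colour Affymetrix mouse gene arrays (Trizol RNA, Ambion WT Expression Kit). The deposited values are log2 values that the authors made with RMA, for 35556 probe sets. Which program ran RMA, and on which probe set definition, is not given in the sources used here. RMA puts all arrays on a common distribution, so a shift shared by all genes cannot be seen. Probe sets with 1 gene symbol in the platform annotation (21789) were kept, 1621 with several symbols and 12146 without one were left out, and a gene with several probe sets was read by that with the highest mean, which gave 19938 genes.

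All 44 arrays entered 1 limma fit (version 3.58.1, R 4.3.3; lmFit and eBayes) with 1 mean per group, 34 residual degrees of freedom and 17 contrasts, each adjusted by Benjamini-Hochberg over the 19938 genes, two-sided. The fit was tested on simulated data. Alternatives were centring on array medians, a filter on dim genes, mean of probe sets, only the compared arrays, trend and robust variance, a replicate block, leaving out each array, and each set of WT day 2 replicates. Same-numbered arrays did not meet the rule for pairing (in WT subsets r ran from 0.011 to 0.600).

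Named were the 10 genes in every contrast, for each the 3 genes nearest in group means, up to 4 passing members per list and contrast, and label checks. Members and lists were chosen with earlier results of these data known. Levels were compared between arrays, and between probe sets only as above or below the median gene.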

Additional observations from a re-analysis of the deposited data

Results flagged for a closer look

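In groups of 4 to 6 arrays, 80 sets of values were searched for an array that stood apart from its group, and 4 were found. A rate of about 1 in 20 would give that number if the sets were independent. They are not, since the 10 genes were read in the same arrays, so that rate does not settle what the 4 are. Of the arrays of WT day 2 replicate 4, Cd14 was low in both subsets, at 10.56 in Ly6C- MFs, where the others had 11.56 or more, and at 11.16 in Ly6C+ MFs, where the others had 12.06 to 12.36. Tlr8 was high in WT day 2 Ly6C+ replicate 5, at 11.13 against 9.51 to 10.07. Tlr13 was low in KO day 4 replicate 4, at 11.69 against 11.84 to 11.87.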

How the results depend on the processing

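The 10 genes in 17 contrasts gave 170 results, each refitted under the alternatives, 3300 refits in all. No called result changed sign. The side of the threshold was kept in 3184 refits, 60 calls were lost and 56 were gained. Most of the 170 results had not passed in the fit of all arrays, so most refits that kept their side were of results not called. The 60 losses fall on the far fewer refits of called results, many of them in rosiglitazone in Ly6C+ MFs and WT day 2 against day 1.

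Under every alternative run, Tlr9 passed between subsets and Cd14, Tlr1, Tlr2, Tlr6, Tlr7, Tlr8 and Tlr9 passed between day 4 and Ly6C+ arrays of day 2, in both genotypes. Against WT Ly6C- arrays of day 2, Tlr2 was lost with only the compared arrays, the replicate block and replicates 4 to 6 (adjusted p = 0.0626, 0.132 and 0.352), and Tlr6 with replicates 4 to 6 (0.0830). Tlr13 lost its WT call against Ly6C+ arrays with the replicate block (adjusted p = 0.0726).

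The number of the 10 genes called moved by more than 1.5 times in these cases. With trend and robust variance, WT day 2 against day 1 gave 1. With only the arrays of the compared groups, WT subsets gave 2, WT day 2 against day 1 gave 0 and rosiglitazone in Ly6C+ MFs gave 0. With the replicate block, which the labels do not support as a pairing, KO day 2 against day 1 gave 2 and rosiglitazone in Ly6C- MFs gave 2. The block was fitted only to the compared groups and to the replicate numbers they share. KO day 2 replicate 5 was thereby dropped in the first case and WT replicates 4 to 6 in the second. The differences equalled those without these arrays, at 0.34 and 0.30 for Tlr1 and Tlr7, and -1.03 and -0.60 for Tlr2 and Tlr9. Blocking and the loss of arrays were thus not told apart in these 2 cases. The same number gave the highest correlation for 3 of 6 replicates in WT subsets and for 4 of 5 in KO subsets. The block ended the WT subset call of Tlr8 (adjusted p = 0.0536) and brought in Cd14 (adjusted p = 0.00152). In KO subsets it brought in Tlr6 and Cd14 (adjusted p = 0.01865 and 0.001594), which gave 8 of the 10.

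With WT day 2 replicates 1 to 3, KO against WT gave 1 in Ly6C+ and 1 in Ly6C- MFs, rosiglitazone in Ly6C- MFs gave 4, and the interactions of rosiglitazone with subset and of genotype with days 4 and 2 gave 1 each. Over all genes the first 3 of these comparisons then gave 3008, 2864 and 2556 calls, against 374, 40 and 7 with all 6 replicates. With replicates 4 to 6, WT subsets gave 2, WT day 2 against day 1 gave 5, KO against WT in Ly6C+ MFs gave 1 and rosiglitazone in Ly6C+ MFs gave 1. The cause was not tested.

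Leaving out 1 array at a time gave 0 to 4 calls for WT day 2 against day 1, 2 to 6 for WT subsets, 0 to 2 each for KO day 2 against day 1, KO against WT in Ly6C+ MFs and rosiglitazone in Ly6C- MFs, 1 to 6 for rosiglitazone in Ly6C+ MFs and 0 to 1 for the interaction of rosiglitazone with subset.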
